A study of Mus musculus with 7 samples.

Results

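Solute carriers are membrane proteins that move amino acids, sugars, ions, nucleotides, metabolites and vitamins across the plasma membrane or the membranes of organelles, and their genes share the symbol prefix Slc with a family number. Most are secondary active transporters or facilitators: they use the sodium, proton or membrane potential gradients made by pumps, or exchange 1 solute for another. In neural stem cells they are known for supplying glutamine, cystine and glucose to dividing cells, and in glia for clearing transmitters. The genes described here are the protein-coding mouse genes whose symbol begins with Slc and a digit in the GENCODE M21 annotation of GRCm38, after leaving out 4 genes of the family that are not used here. The annotation holds 367 such genes, and 67 of them stand in the authors' deposited table, which lists 3389 genes in all. They were chosen by symbol, with earlier results of these data known. The table holds only genes with an adjusted p under 0.05, so every listed member had passed the authors' test.

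The cells were neural stem cells cultured from the mouse subventricular zone with EGF and FGF-2 and nucleofected with short hairpin RNA (shRNA). There were 4 shKAP1 libraries and 3 control libraries, with no strain, age or genotype in the labels and no description of the hairpin, if any, in the control. KAP1 is the protein of Trim28, a corepressor brought to DNA by KRAB zinc finger proteins, and the comparison asks which transcripts differ when it is reduced. Nucleofection usually reaches only a part of the cells, and the labels do not say whether transfected cells were selected or whether each sample was a culture or animal of its own, so p-values speak of the spread between these samples only.

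The authors' deposited table gives 1 line per gene with the log2 fold change (shKAP1 over control), the standard error (SE) of this value, the adjusted p of DESeq2 and the mean normalized count over the samples. It has no value per sample, so levels in single libraries, their overlap between groups and the depth of each library are unknown, and the SE stands for the replicate error. Negative values are read as lower in shKAP1 because Trim28, the targeted gene, has a negative value, -1.17 (SE 0.05), according to the authors' deposited table. In such bulk samples, fewer cells of a type and less RNA per cell cannot be told apart. For a gene outside the table it is unknown whether it failed the threshold or was given no adjusted p at all.

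Of the 67 listed solute carrier genes, 41 were higher and 26 lower in shKAP1, so 61.2% of the listed members were higher (exact 95% binomial interval 48.5% to 72.9%, which treats genes as independent). Over all genes of the authors' deposited table the share higher was 47.8%. Of 12905 genes with an adjusted p, 26.3% were listed, with 12.6% higher and 13.7% lower. How many solute carrier genes were among the 12905 is unknown, so a share on that base cannot be given for them. On the base of annotated genes, 18.3% of solute carrier genes were listed, against 15.4% of all 21951 protein-coding genes, of which 7.35% were higher and 8.04% lower. The differences were small: the median listed member differed by 1.27-fold in either direction, beside 1.22-fold over all listed genes. The median of the signed log2 fold change was 0.18 for the members and -0.13 for all listed genes. No member reached 2-fold, and 5 reached 1.5-fold, all of them higher, namely Slc7a11, Slc7a3, Slc37a2, Slc16a9 and Slc6a17. Among all listed genes 2.42% reached 2-fold and 10.6% reached 1.5-fold in either direction. Their split by direction was not counted, so nothing particular to the carriers is read from the direction of these 5.

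By class, the listed genes split as follows. Amino acid carriers were 6 higher and 6 lower of 56 annotated, sugar carriers 3 higher and 1 lower of 29, and ion carriers 8 higher and 8 lower of 91. Nucleotide and nucleotide sugar carriers were 5 higher and 3 lower of 35, mitochondrial carriers (family Slc25) 11 higher and 3 lower of 47, and the remaining carriers 8 higher and 5 lower of 109. The share of annotated genes that was listed ran from 11.9% for the remaining carriers to 29.8% for the mitochondrial carriers, against 15.4% of all protein-coding genes. Over genes with an adjusted p the share listed was 26.3%. How many genes of each class had an adjusted p is unknown. A class with fewer expressed genes therefore cannot be told apart from a class with fewer differences. No test of these shares was made, and the classes hold few listed genes. For the 14 listed mitochondrial carriers, the exact 95% binomial interval for the share higher ran from 49.2% to 95.3%. It treats genes as independent, though all values come from the same libraries, so no difference from other genes is read from it.

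**Figure D1:**
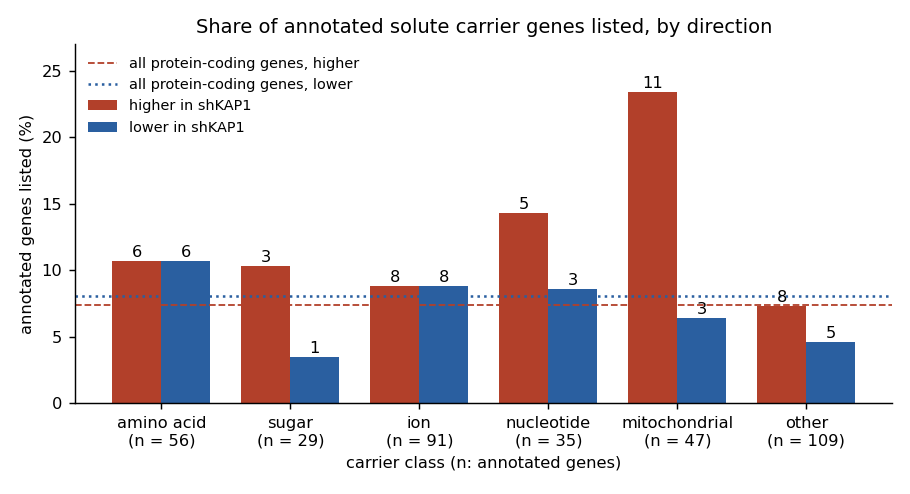
Share of annotated solute carrier genes (vertical axis, percent) that the authors' deposited table lists as higher (red) or lower (blue) in shKAP1, for 6 carrier classes on the horizontal axis, with the number of genes above each bar. Dashed and dotted lines give the same shares over all protein-coding genes, 7.35% higher and 8.04% lower, and the higher bars of every class but the remaining carriers stand above the line for higher genes, with the mitochondrial class, 11 of 47, the tallest. The bases of bars and lines include genes without an adjusted p.

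Amino acid carriers held the largest fold change among the members and several of the smallest adjusted p. Slc7a11 (ENSMUSG00000027737.10, chr3:49892526-50443614, minus strand, GRCm38) encodes xCT, the exchanger that brings cystine into the cell in return for glutamate and so feeds glutathione synthesis. According to the authors' deposited table it was 1.99-fold higher in shKAP1 (95% interval 1.68 to 2.36), a log2 fold change of 0.99 (SE 0.12, DESeq2 adjusted p = 2.16e-13) at a mean normalized count of 1888. That is the smallest adjusted p of the 67 members, at rank 114 of all listed genes, so none stood among the first 100. Slc3a2, the heavy chain that xCT pairs with at the plasma membrane, was not listed, nor was Slc7a5, the large neutral amino acid transporter that uses the same heavy chain.

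Promoter sequences are shown for the 3 members whose RefSeq promoter (GRCm38.p6, 250 bases before to 50 bases after the start) holds the letters TGATGNAA on either strand, the core of the amino acid response element bound by ATF4 with a C/EBP partner, and for Slc38a2, the lower amino acid carrier of smallest adjusted p among those with a promoter in the table. Capitals mark each TGATGNAA match, and all are written 5′ to 3′ on the strand of the gene.
Slc7a11, chr3:50443564-50443863, minus strand: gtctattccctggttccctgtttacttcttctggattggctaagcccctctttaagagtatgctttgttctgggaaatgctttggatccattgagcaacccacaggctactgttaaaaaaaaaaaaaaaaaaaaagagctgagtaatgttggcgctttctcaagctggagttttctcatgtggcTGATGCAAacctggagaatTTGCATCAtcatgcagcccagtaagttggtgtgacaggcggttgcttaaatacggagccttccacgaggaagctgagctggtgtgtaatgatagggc
Slc1a4, chr11:20332664-20332963, minus strand: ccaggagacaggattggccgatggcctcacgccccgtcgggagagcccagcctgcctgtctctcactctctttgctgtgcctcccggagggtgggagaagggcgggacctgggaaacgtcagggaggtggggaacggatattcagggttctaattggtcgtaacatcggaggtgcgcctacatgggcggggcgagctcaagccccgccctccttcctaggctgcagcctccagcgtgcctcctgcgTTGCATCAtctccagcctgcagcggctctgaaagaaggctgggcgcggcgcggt
Slc9a9, chr9:94669642-94669941, plus strand: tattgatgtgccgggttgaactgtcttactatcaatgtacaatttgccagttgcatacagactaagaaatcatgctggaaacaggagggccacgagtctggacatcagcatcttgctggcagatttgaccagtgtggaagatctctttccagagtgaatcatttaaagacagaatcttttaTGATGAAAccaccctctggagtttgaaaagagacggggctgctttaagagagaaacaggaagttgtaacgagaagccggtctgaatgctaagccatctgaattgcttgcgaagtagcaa
Slc38a2, chr15:96699679-96699978, minus strand: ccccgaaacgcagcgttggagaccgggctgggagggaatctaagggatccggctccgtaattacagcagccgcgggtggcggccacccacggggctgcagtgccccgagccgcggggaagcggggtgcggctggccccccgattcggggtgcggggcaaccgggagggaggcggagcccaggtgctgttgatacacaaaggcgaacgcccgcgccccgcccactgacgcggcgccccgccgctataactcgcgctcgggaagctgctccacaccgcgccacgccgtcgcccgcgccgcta

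The Slc7a11 promoter holds 2 copies in opposite orientation, which begin 66 and 47 bases before the start. The single copy in Slc1a4 begins 4 bases before the start and that in Slc9a9 69 bases before it. A promoter was found by symbol for 54 of the 67 members, and TGATGNAA was present in 3 of them (5.56%), against 4.51% of 27025 genes. These 3 were among the 35 higher members with a promoter (8.57%), and none of the 19 lower members with one held it. With only 3 matches, nothing particular to either direction is read from this split. The letters TGACNNNGC, the core of the antioxidant response element bound by NRF2, which do not overlap any match shown, were present in 10 of the 54 (18.5%) and in 13.99% of all genes. Slc38a2 holds 1 such match, and the Slc7a11 window holds none. A match describes the letters only, and a missing match says only that they are not in this window.

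The other higher amino acid carriers spanned the plasma membrane, lysosomes and vesicles. Slc7a3 (ENSMUSG00000031297.14, chrX:101079210-101086020), a carrier of arginine and lysine, stood at 0.84 (SE 0.15, DESeq2 adjusted p = 6.34e-07) (log2) according to the authors' deposited table, at a mean normalized count of only 198.5. Slc6a17, a carrier of neutral amino acids on synaptic vesicles, was 1.56-fold higher according to the authors' deposited table (log2 0.64, SE 0.14). Slc43a2, a facilitator of large neutral amino acids, was at 0.32 (SE 0.06, DESeq2 adjusted p = 6.83e-07) according to the authors' deposited table. Slc36a1, which moves small amino acids out of lysosomes with protons, had a log2 fold change of 0.33 (SE 0.07) by the authors' deposited table. Slc1a4, which exchanges alanine, serine and cysteine was higher by 1.19-fold according to the authors' deposited table (95% interval 1.12 to 1.27, DESeq2 adjusted p = 3.61e-06) at a mean normalized count of 13080.

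The lower amino acid carriers included carriers known for glutamine uptake. Slc38a2 (ENSMUSG00000022462.7, chr15:96687392-96699730, minus strand) and its neighbour Slc38a1 (ENSMUSG00000023169.15, chr15:96571418-96642913, minus strand) encode the sodium-coupled carriers SNAT2 and SNAT1 of glutamine, alanine and other small neutral amino acids. By the authors' deposited table, Slc38a2 was 1.32-fold lower in shKAP1 (95% interval 1.23 to 1.42), a log2 fold change of -0.40 (SE 0.05, DESeq2 adjusted p = 3.02e-12). Slc38a1 stood at -0.46 (SE 0.08, DESeq2 adjusted p = 2.74e-07) according to the authors' deposited table. Slc1a5, the glutamine exchanger ASCT2, was at -0.39 (SE 0.11, DESeq2 adjusted p = 0.00250) according to the authors' deposited table. The authors' deposited table also gives Slc43a1, a facilitator of branched-chain amino acids, at -0.48 (SE 0.18), Slc16a10, a carrier of aromatic amino acids, at -0.40 (SE 0.16) and Slc36a4 at -0.27 (SE 0.09). The values of Slc43a1 and Slc16a10 rest on mean normalized counts of 272.6 and 178.0 according to the authors' deposited table and their adjusted p were 0.0298 and 0.0438 (DESeq2).

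**Figure D2:**
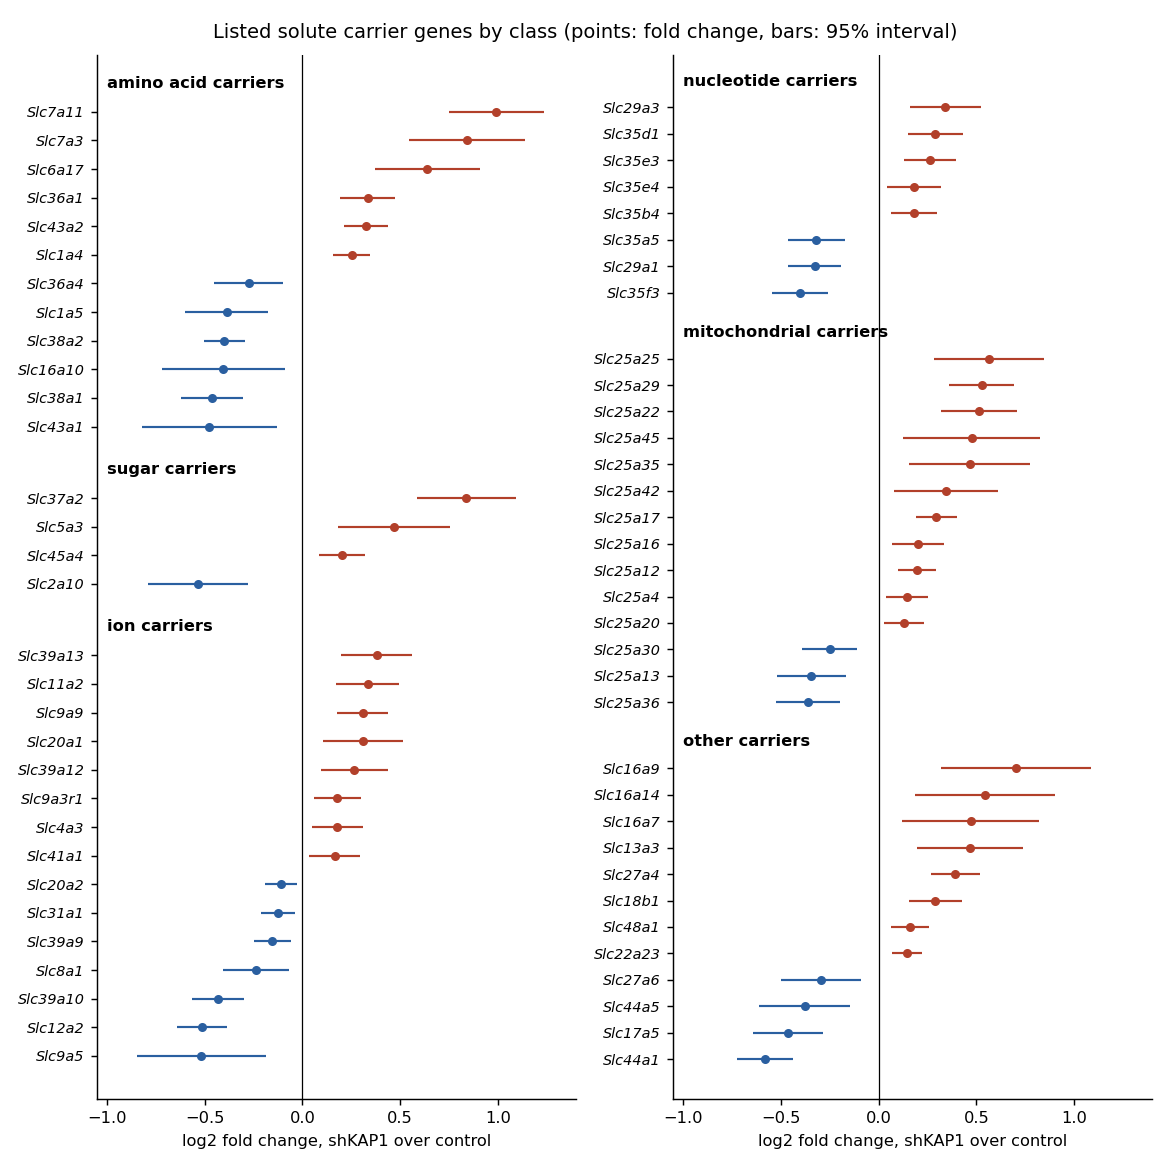
Log2 fold change of shKAP1 over control (horizontal axis) for 65 of the 67 listed solute carrier genes, grouped by class down the page, from the authors' deposited table. Points are fold changes and bars 95% intervals from the SE, red where higher and blue where lower in shKAP1, with Slc7a11 at 0.99 as the highest and Slc44a1 at -0.58 as the lowest.

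Few sugar carriers were listed. Slc37a2 (ENSMUSG00000032122.15, chr9:37227585-37255738, minus strand), an exchanger of sugar phosphates and phosphate, was 1.79-fold higher in shKAP1 (95% interval 1.498 to 2.13), a log2 fold change of 0.84 (SE 0.13, DESeq2 adjusted p = 5.26e-09) according to the authors' deposited table. Slc5a3, which takes up myo-inositol with sodium, stood at 0.47 (SE 0.15, DESeq2 adjusted p = 0.00801) according to the authors' deposited table. Its exons overlap those of Mrps6 on the same strand. Mrps6 was itself listed as higher, at 0.57 with a mean normalized count of 8414 according to the authors' deposited table. The value of Slc5a3, 1 of the 3 higher sugar carriers, is therefore uncertain. Slc45a4 was at 0.20 (SE 0.06) according to the authors' deposited table. Slc2a10, the facilitative carrier GLUT10, was the lower member, at -0.54 (SE 0.13, DESeq2 adjusted p = 0.000418) according to the authors' deposited table. The main glucose facilitators of the brain, Slc2a1 (GLUT1) of the blood-brain barrier and glia and Slc2a3 (GLUT3) of neurons, were not listed, and Slc2a10 was the only 1 of 12 annotated Slc2 genes in the table.

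Ion carriers divided evenly, and the member of smallest adjusted p among them was lower. Slc12a2 (ENSMUSG00000024597.11, chr18:57878678-57946821, plus strand) encodes NKCC1, which loads cells with chloride together with sodium and potassium. According to the authors' deposited table it was 1.43-fold lower in shKAP1 (95% interval 1.31 to 1.56), a log2 fold change of -0.51 (SE 0.07, DESeq2 adjusted p = 5.06e-13) at a mean normalized count of 6485. Slc12a5, the KCC2 carrier of mature neurons, was not listed.

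Among carriers of sodium, protons, calcium and phosphate, Slc9a5, a sodium-proton exchanger found mainly in neurons, stood at -0.52 (SE 0.17, DESeq2 adjusted p = 0.0113) and the sodium-calcium exchanger gene Slc8a1 at -0.24 (SE 0.09) according to the authors' deposited table. Slc9a9, a sodium-proton exchanger of endosomes, was higher at 0.31 (SE 0.07, DESeq2 adjusted p = 4.74e-05) according to the authors' deposited table. Slc4a3, an exchanger of chloride and bicarbonate, was at 0.18 (SE 0.07) according to the authors' deposited table. Slc20a1 and Slc20a2, which encode the sodium-phosphate carriers PiT1 and PiT2, are the only annotated genes of their family, and the authors' deposited table gives them at 0.31 (SE 0.10) and -0.11 (SE 0.04). Slc9a3r1 fits the symbol rule but encodes NHERF1, a scaffold that binds carriers and is itself none, and it stood at 0.18 (SE 0.06) according to the authors' deposited table.

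Metal carriers were 4 higher and 3 lower of 32 annotated. Slc39a10 (ENSMUSG00000025986.6, chr1:46807544-46892852, minus strand), a zinc importer of the plasma membrane, was 1.35-fold lower in shKAP1 (95% interval 1.23 to 1.48), a log2 fold change of -0.43 (SE 0.07, DESeq2 adjusted p = 7.68e-09) according to the authors' deposited table. Slc39a9, another member of this zinc carrier family, stood at -0.15 (SE 0.05), and the copper importer gene Slc31a1 at -0.12 (SE 0.04), according to the authors' deposited table. The higher ones according to the authors' deposited table were Slc39a13, a zinc carrier of intracellular membranes, at 0.38 (SE 0.09), Slc11a2, the iron importer DMT1, at 0.33 (SE 0.08), the zinc importer gene Slc39a12 at 0.27 (SE 0.09) and the magnesium carrier gene Slc41a1 at 0.17 (SE 0.07). Slc41a1 was also the member nearest the threshold, with an adjusted p of 0.0488 (DESeq2) according to the authors' deposited table. No gene of the zinc exporter family Slc30 was listed.

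The listed carriers of nucleosides were 1 lower and 1 higher gene. Slc29a1, the nucleoside facilitator ENT1 of the plasma membrane, was lower at -0.33 (SE 0.07, DESeq2 adjusted p = 3.58e-05) according to the authors' deposited table, whereas Slc29a3, the ENT3 facilitator of lysosomes, was higher at 0.34 (SE 0.09, DESeq2 adjusted p = 0.00195). Of 27 annotated genes of the Slc35 family, most of which load the endoplasmic reticulum and Golgi with nucleotide sugars for glycosylation, 4 were higher and 2 lower. Slc35d1, a carrier of UDP-glucuronic acid and UDP-N-acetylgalactosamine, stood at 0.29 (SE 0.07), Slc35b4 at 0.18 (SE 0.06), Slc35e3 at 0.26 (SE 0.07) and Slc35e4 at 0.18 (SE 0.07) according to the authors' deposited table. The lower ones were Slc35f3 at -0.40 (SE 0.07, DESeq2 adjusted p = 1.10e-06) and Slc35a5 at -0.32 (SE 0.08) according to the authors' deposited table.

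Listed carriers of the Slc25 family, which sit for the most part in the inner mitochondrial membrane, were 11 higher and 3 lower, which became 5 higher and 3 lower at an adjusted p under 0.01. Slc25a29 (ENSMUSG00000021265.3, chr12:108825873-108835883, minus strand), a carrier of basic amino acids, was 1.44-fold higher in shKAP1 (95% interval 1.28 to 1.62), a log2 fold change of 0.53 (SE 0.08, DESeq2 adjusted p = 2.01e-08) according to the authors' deposited table. Slc25a22, a glutamate carrier, stood at 0.51 (SE 0.10, DESeq2 adjusted p = 5.25e-06), and Slc25a25, a calcium-regulated exchanger of ATP-magnesium and phosphate, at 0.56 (SE 0.14), according to the authors' deposited table. Slc25a17 was at 0.30 (SE 0.05, DESeq2 adjusted p = 6.03e-07) according to the authors' deposited table, but it is known as a carrier of peroxisomes, and without it the class holds 10 higher and 3 lower genes.

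Further Slc25 genes concern energy metabolism and cofactors. Slc25a4, the adenine nucleotide exchanger ANT1 and the most abundant of the 67 members per kilobase, was at 0.15 (SE 0.05, DESeq2 adjusted p = 0.0319) according to the authors' deposited table. Slc25a20, which carries acylcarnitines for fatty acid oxidation, stood at 0.13 (SE 0.05), and Slc25a42, a carrier of coenzyme A, at 0.34 (SE 0.14), according to the authors' deposited table. Slc25a16 at 0.20 (SE 0.07), Slc25a35 at 0.47 (SE 0.16) and Slc25a45 at 0.48 (SE 0.18) were also higher according to the authors' deposited table. The lower genes according to the authors' deposited table were Slc25a36, a carrier of pyrimidine nucleotides, at -0.36 (SE 0.08, DESeq2 adjusted p = 0.000145), Slc25a13 at -0.34 (SE 0.09) and Slc25a30 at -0.25 (SE 0.07). Slc25a12 and Slc25a13 encode the aspartate-glutamate carriers aralar and citrin of the malate-aspartate shuttle, and Slc25a12, unlike Slc25a13, was higher, at 0.19 (SE 0.05, DESeq2 adjusted p = 0.000701) according to the authors' deposited table. Slc25a3, the phosphate carrier, Slc25a1, the citrate carrier, and Slc25a5, another adenine nucleotide exchanger, were not listed.

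The remaining carriers held the lowest log2 fold change of all members. Slc44a1 (ENSMUSG00000028412.17, chr4:53440413-53622478, plus strand), a choline transporter, was 1.495-fold lower in shKAP1 (95% interval 1.35 to 1.65), a log2 fold change of -0.58 (SE 0.07, DESeq2 adjusted p = 3.79e-13) according to the authors' deposited table. Its family member Slc44a5 was at -0.38 (SE 0.12) according to the authors' deposited table. Slc17a5, the lysosomal exporter of sialic acid, stood at -0.46 (SE 0.09, DESeq2 adjusted p = 8.19e-06) according to the authors' deposited table.

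Carriers and acyl-CoA synthetases of fatty acid uptake went in both directions, with Slc27a4 at 0.39 (SE 0.06, DESeq2 adjusted p = 4.73e-08) and Slc27a6 at -0.29 (SE 0.10) according to the authors' deposited table. Besides Slc16a10, 3 genes of the monocarboxylate family were listed, all higher, and 10 of its 14 annotated genes were not listed. They were Slc16a9 at 0.70 (SE 0.20, DESeq2 adjusted p = 0.00257), Slc16a14 at 0.54 (SE 0.18) and Slc16a7, the MCT2 carrier of lactate and pyruvate, at 0.47 (SE 0.18) according to the authors' deposited table. Their mean normalized counts were low, at 638.8, 270.0 and 222.0 according to the authors' deposited table, and the main lactate carrier genes Slc16a1 and Slc16a3 were not listed. Slc13a3, a sodium-coupled carrier of dicarboxylates, was at 0.47 (SE 0.14), the vesicular polyamine carrier gene Slc18b1 at 0.29 (SE 0.07), the heme carrier gene Slc48a1 at 0.16 (SE 0.05) and Slc22a23 at 0.15 (SE 0.04) according to the authors' deposited table.

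The 67 members fall into 30 families, of which 16 had at least 2 listed genes, and 12 of these 16 held genes in both directions. Over all listed genes 47.8% were higher, and under such a nearly even split families with both directions are common, so nothing particular to the carriers is read from this count. Examples given above are Slc1a4 and Slc1a5, Slc20a1 and Slc20a2, Slc29a1 and Slc29a3, Slc36a1 and Slc36a4, Slc43a1 and Slc43a2, and Slc25a12 and Slc25a13. The difference between paralogs was not itself tested. The 4 families in 1 direction were Slc7, higher, and Slc12, Slc38 and Slc44, lower, each with 2 listed genes.

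**Figure D3:**
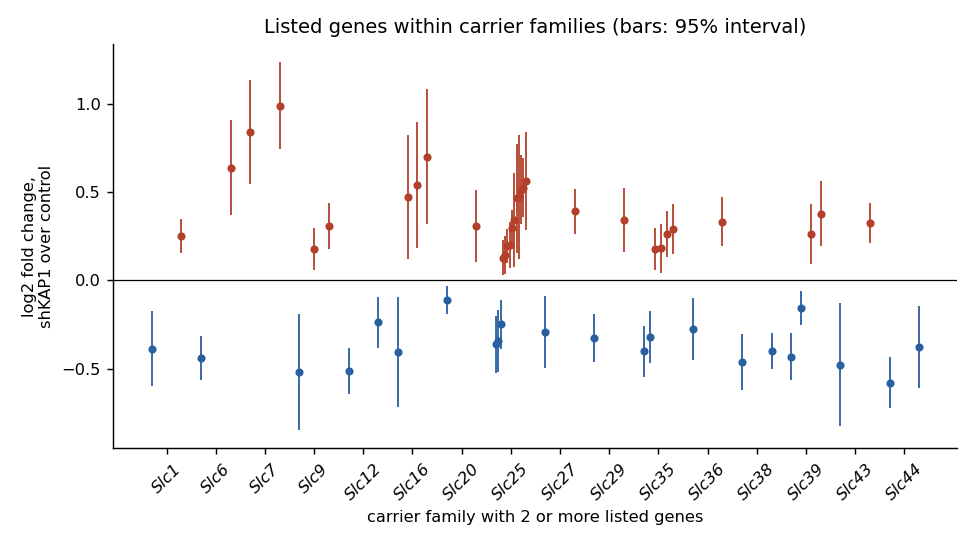
Log2 fold change of shKAP1 over control (vertical axis) for the listed genes of each of the 16 carrier families with 2 or more listed genes (horizontal axis), from the authors' deposited table. Points are genes, bars 95% intervals from the SE, red higher and blue lower in shKAP1, and 12 of the 16 families have points on both sides of 0.

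According to the authors' deposited table, the mean normalized counts of the members, on which the precision of each value rests, had a median of 2266, against a median of 2885 over all listed genes. For other higher members given above with an adjusted p, the authors' deposited table gives counts of 2266 for Slc37a2, 750.4 for Slc25a29, 3168 for Slc27a4, 4382 for Slc25a17, 4536 for Slc43a2 and 7734 for Slc5a3. For lower ones, the authors' deposited table gives counts of 5434 for Slc44a1, 6806 for Slc38a2, 8096 for Slc38a1, 5165 for Slc39a10, 769.2 for Slc35f3, 1716 for Slc17a5, 2126 for Slc29a1, 481.6 for Slc9a5 and 357.4 for Slc2a10. Divided by the length of the longest annotated coding transcript, the mean normalized count per kilobase ran from 20.2 for Slc16a7 to 23562 for Slc25a4, with a median of 519.9, against 818.1 for all listed genes. Slc1a4 stood at 3332 per kilobase. These levels depend on which transcript is used as the length.

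**Figure D4:**
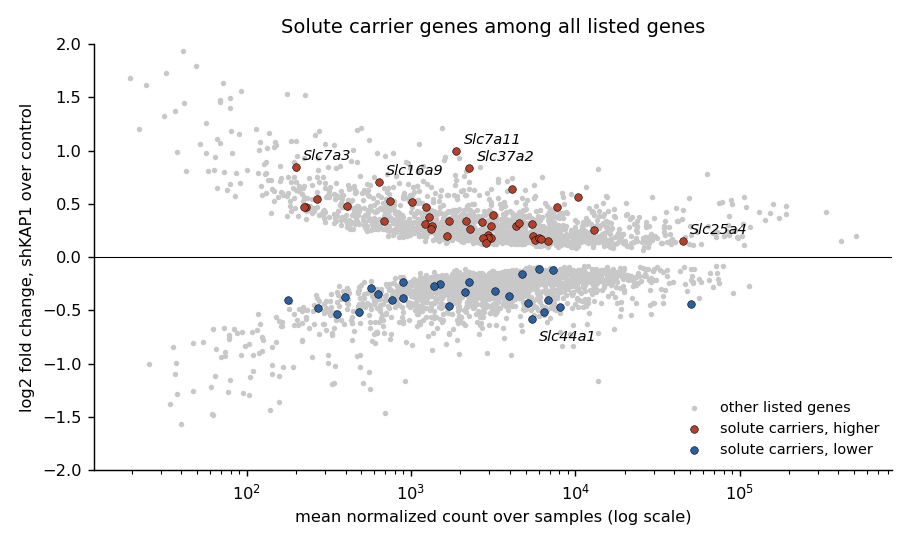
Log2 fold change of shKAP1 over control (vertical axis) against the mean normalized count over samples (horizontal axis, log scale) for the genes of the authors' deposited table, with solute carriers in red (higher) and blue (lower) and the others in grey. Slc7a11 stands at 0.99 among genes of similar count, Slc25a4 stands at the right end of the higher members, and 6 other genes beyond 4-fold lie outside the plot.

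Direction among all listed genes moved with base composition. The members went the same way in a split at the median GC content, which was chosen after seeing the data. The median transcript GC content was 52.9% for the 41 higher and 47.8% for the 26 lower members, and 53.2% and 48.1% for all higher and lower listed genes. At or above the median GC content of listed genes (50.4%), 25 of 33 members were higher (75.8%), against 62.4% of all listed genes. Below it, 16 of 34 members were higher (47.1%), against 33.2% of all listed genes. Spearman's rho of the log2 fold change with GC content was 0.21 across the 67 members and 0.28 across 3388 listed genes, which come from the same libraries. Its part in the split of the members was not tested. Slc7a11, at 41.9% GC, was among the 16 higher of the 34 members below the median GC content.

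**Figure D5:**
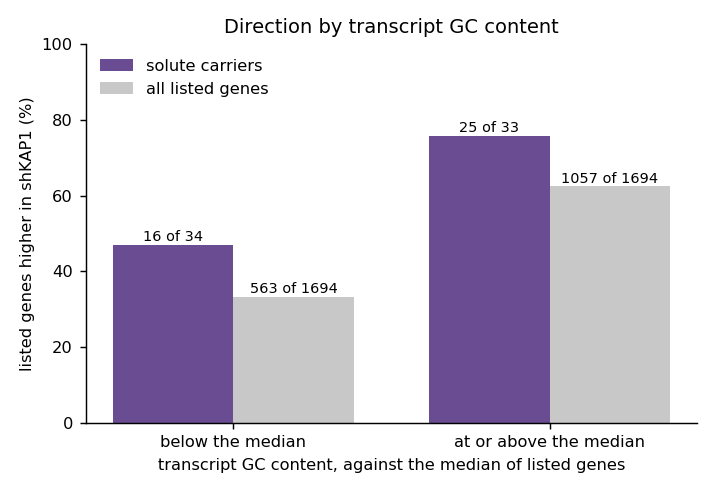
Share of listed genes that were higher in shKAP1 (vertical axis, percent) for genes below and at or above the median transcript GC content of listed genes (horizontal axis), for solute carriers (purple) and all listed genes (grey), with counts above the bars. The share is larger at higher GC content in both sets, 75.8% against 47.1% for solute carriers and 62.4% against 33.2% for all listed genes.

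Genes that work with these carriers were read from lists. Of 19 genes of the amino acid response, the ATF4-driven programme that also controls several carriers, 7 were higher, 1 lower and 11 not listed, beside 7.35% higher and 8.04% lower over all protein-coding genes and 12.6% and 13.7% over the genes with an adjusted p. By the authors' deposited table, the sestrin gene Sesn2 stood at 0.51 (SE 0.05, DESeq2 adjusted p = 1.60e-22), the transcription factor genes Atf5 at 0.50 (SE 0.05), Cebpb at 1.05 (SE 0.20), Atf3 at 0.83 (SE 0.18) and Ddit3 at 0.28 (SE 0.10), the glutathione-degrading enzyme gene Chac1 at 0.82 (SE 0.17) and the serine synthesis gene Psph at 0.22 (SE 0.08). The lower one was Vldlr at -0.24 (SE 0.09) according to the authors' deposited table, and Atf4, Asns and Trib3 were not listed.

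Of 14 genes of the sodium pump, which makes the gradient that many carriers use, 2 were lower and 12 were not listed. Over all genes, 8.04% of protein-coding genes and 13.7% of genes with an adjusted p were lower. The count for the pump was near the latter share. Fxyd6, a regulator of the pump, was 1 of the 2, at -0.72 (SE 0.12) according to the authors' deposited table. Of 6 genes of the WNK kinase pathway, which phosphorylates NKCC1 and the KCC carriers, 1 was lower and 5 were not listed, beside the same shares. It was Wnk3, at -0.27 (SE 0.10) according to the authors' deposited table. Of 7 metal response genes 3 were higher, beside 7.35% of all protein-coding genes and 12.6% of genes with an adjusted p, according to the authors' deposited table, the ferritin genes Fth1 at 0.55 (SE 0.08) and Ftl1 at 0.29 (SE 0.07) and the metallothionein gene Mt3 at 0.47 (SE 0.09). Of 5 partner genes 1 was higher and 4 were not listed, beside the same shares of higher genes. It was Tspo, of the outer mitochondrial membrane, at 0.71 (SE 0.17) according to the authors' deposited table. Bsg, the chaperone of lactate carriers, was among those not listed.

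Transporters of solute carrier families that keep another symbol were 5 higher and 2 lower of 37, 36 of which were found in the annotation by symbol, so the share listed was near the 15.4% of all protein-coding genes. The mitochondrial pyruvate carrier genes Mpc1 at 0.19 (SE 0.06) and Mpc2 at 0.20 (SE 0.06), Letm1 at 0.23 (SE 0.07) and the sideroflexin gene Sfxn5 at 0.48 (SE 0.10), all of the inner mitochondrial membrane, were higher according to the authors' deposited table, as was Pqlc3 at 0.66 (SE 0.10, DESeq2 adjusted p = 3.73e-09). Sv2c, of synaptic vesicles, was lower at -0.37 (SE 0.15) and Mpdu1 at -0.12 (SE 0.04) according to the authors' deposited table.

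Many carriers mark a cell type, so markers were read beside them. Over all protein-coding genes 7.35% were higher and 8.04% lower, and over genes with an adjusted p 12.6% and 13.7%. With lists this short, several of the counts below lie near these shares, and no shift of a cell type is read from them. Of 10 neural stem cell genes, Vim, Fabp7 and Nes were higher and 7 were not listed, with Fabp7 at 0.48 (SE 0.05) according to the authors' deposited table. Of 7 neuroblast and neuron genes Dcx at -0.62 (SE 0.18) and Map2 at -0.11 (SE 0.04) were lower according to the authors' deposited table, and of 5 astrocyte genes Aldh1l1 was higher at 0.29 (SE 0.05). Of 7 oligodendrocyte lineage genes Olig2 at 0.20 (SE 0.08) and Mobp at 1.03 (SE 0.24) were higher and Bcas1 at -1.03 (SE 0.11) lower according to the authors' deposited table. Of 6 mural and fibroblast genes Tagln at 0.87 (SE 0.22) and Acta2 at 1.03 (SE 0.24) were the higher ones according to the authors' deposited table, and no gene of 5 microglial and 5 endothelial markers was listed. Levels of markers that are not listed are unknown, and the part of these cell types in the carrier values was not tested.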

How the data were processed

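RNA was measured by poly(A)-selected, dUTP strand-specific sequencing, per the labels' protocols, in 4 shKAP1 and 3 control samples, grouped by library name. The submitters' processing notes list GRCm38 as the build and, as tools, kallisto, DESeq2 and Trim Galore 0.4.4. The model and the remaining versions are not given in the sources. The authors deposited 1 table. Its columns, per the file headers, are DESeq2's mean normalized count (a signal averaged over samples), log2 fold change with SE (log2), a linear fold with a sign, the Wald score, the p-value and the adjusted p-value.

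The planned fit to counts per sample was replaced by the authors' test, since the deposited table holds a comparison only. The number of genes with an adjusted p was recovered as adjusted p times rank divided by p, which gave 12905 within 0.01 in 85.2% of lines, and this step was tested on simulated data. Library depths are unknown. Intervals of 95% use the log2 fold change ± 1.96 SE under a normal approximation.

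GENCODE M21 supplied symbols, coordinates and transcript sequences; 3388 of 3389 identifiers matched without version. GC content is the median over annotated transcripts. Classes follow the Slc family. Listed members were named, with full statistics for the 8 smallest adjusted p and 4 largest changes per direction and the 2 smallest adjusted p per class. A few genes are counted but not reported by name here. Genes named as not listed were chosen after the table was read. The members, lists and promoter motifs were chosen with earlier results of these data known. Exons of 10 members overlap another protein-coding gene, 2 of them on the same strand, and the strand setting of the quantification is not given in the sources. Python 3.11.15, pandas 2.3.3 and scipy 1.17.1 were used.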

Additional observations from a re-analysis of the deposited data

How the results depend on the processing

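The values come from a table of genes past a threshold, so other tools, normalizations and filters and the removal of single libraries could not be tried. No paired analysis was possible because values of single libraries are not in it, and numbers 1, 2 and 4 name a library of each group. Stricter limits leave fewer members by construction. The 41 higher members became 26 at an adjusted p under 0.01, 12 at the Bonferroni limit, 5 at 1.5-fold or more and 9 with an interval beyond 1.2-fold. The 26 lower members became 18 at an adjusted p under 0.01, 9 at the Bonferroni limit, 0 at 1.5-fold or more and 8 with an interval beyond 1.2-fold. Of all 67 members, 44 had an adjusted p under 0.01, 5 reached 1.5-fold and 17 had an interval beyond 1.2-fold. Over all listed genes the shares were 67.4%, 10.6% and 18.6%. The share higher, 61.2%, was 59.1% at an adjusted p under 0.01, 57.1% at the Bonferroni limit, 52.9% with an interval beyond 1.2-fold and 100% at 1.5-fold or more, the last also within the amino acid, sugar and remaining carriers, where 3, 1 and 1 genes were left, and no ion, nucleotide or mitochondrial carrier was left there. The share higher among all listed genes was not counted at any of these limits, so nothing particular to the carriers is read from these shares. With an interval beyond 1.2-fold, 0% of the 2 ion carriers and 100% of the 3 mitochondrial carriers left were higher, and no nucleotide carrier was left. At an adjusted p under 0.01 the mitochondrial class fell to 5 higher and 3 lower genes (62.5% higher). The share over all members was 47.1% below and 75.8% at or above the median GC content, a split that was chosen after seeing the data. The counts without Slc9a3r1 or Slc25a17 were also chosen then. Each leaves out 1 higher member, so 40 higher and 26 lower members were left by construction. A mean normalized count of at least 100 kept all 67 members, and matching identifiers with their version kept 65. Without counts per library, no limit of detection can be given for a carrier that is not listed.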
